A study of Danio rerio with 12 samples.

Results

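The comparison was between the membrane-bound (MB) and the high-speed (HS) fraction of wild-type zebrafish larvae, and its question was which mRNAs were held more by the membrane pellet and which more by the pellet of polysomes, over every tissue of the larva and every class of protein. All genes with an Ensembl identifier and more than 50 counts over the 6 wild-type libraries entered, which gave 23733 genes of the 31778 in the table. The groups were WT MB (3 libraries) and WT HS (3 libraries), 6 of the 12 libraries of the series. The mutant libraries (mia40a -/-, the gene now called chchd4a) were not used here. Both groups held larvae of 5 days post fertilization from in-crosses of mia40a+/+ fish of the AB strain, all of them carrying the transgene Tg(Xla.Eef1a1:mlsEGFP)cms1, which puts a green fluorescent protein into mitochondria. Whole larvae were homogenized, nuclei and debris were spun out, the MB fraction was pelleted from what remained, and the HS fraction was pelleted at much higher speed from the supernatant of the MB spin. By the study's own description the MB pellet held the mitochondria and part of the ER, and the HS pellet held free polysomes together with ribosomes on the other part of the ER. The values below are therefore ratios between these pellets and not between ER-bound and free ribosomes. A library is also a mixture of all tissues, so a tissue could be followed only through genes known to be active in it.

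A protein that is secreted or spans a membrane usually carries a signal peptide or a hydrophobic segment, which the signal recognition particle binds as it leaves the ribosome, and the ribosome with its mRNA is then docked on the endoplasmic reticulum (ER). Ribosomes that make cytosolic and nuclear proteins have no such step and stay free in the cytosol, and most mitochondrial proteins encoded in the nucleus can be imported after they are finished. Mitochondria hold their own ribosomes and mRNAs within the organelle. The lists below follow these routes: for each of 14 tissues a list of soluble products and a list of membrane or secreted products, then 71 protein classes. Last come 18 families, grouped by a shared fold or a shared activity, whose members reside in different compartments.

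Gene counts summed to between 86554591 and 96059775 in the MB libraries and between 48834340 and 78370814 in the HS libraries. Values are CPM, library counts scaled by TMM to a common total (replicates 1, 2 and 3 in order). The log2 enrichment is MB over HS and stands in brackets with its SE (n = 3 libraries a group, derived from the test's F statistic) and its adjusted p. A gene was called MB-enriched or HS-enriched where edgeR's quasi-likelihood test gave a Benjamini-Hochberg adjusted p of at most 0.05. By this rule 2948 genes (12.4%) were MB-enriched and 3165 (13.3%) were HS-enriched, and the median over all genes was 0.08, with quartiles at -0.56 and 0.68. Every MB library was above every HS library in 6220 genes (26.2%) and below every one in 4892 (20.6%). The fraction labels held up against their markers. All 13 mRNAs made from mitochondrial DNA were MB-enriched (median 2.67, and 2.78 with 13 and 0 without HS replicate 1), and of 83 cytosolic ribosomal protein genes 0 were MB-enriched and 55 were HS-enriched (median -1.21).

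One library stood farthest apart. HS replicate 1 had the lowest gene count and the largest share of reads on spike-in RNA (30.03%, against 14.2% and 9.82% in HS replicates 2 and 3 and 2.88% to 7.22% in the MB libraries), and its log CPM correlated at 0.938 and 0.923 with the other HS libraries, which correlated at 0.991 with each other. MB replicate 1 stood apart to a lesser extent, at 0.977 and 0.980 with the other MB libraries, which correlated at 0.995 with each other. Between HS replicate 1 and MB replicate 1 the correlation was 0.933. Without HS replicate 1, 7036 genes (29.8% of 23579) were MB-enriched and 6591 (28.0%) were HS-enriched. Counts of a list without HS replicate 1 stand against these 29.8% and 28.0% of all genes, and not against 12.4% and 13.3%. Leaving out replicate 1 of both fractions gave 8413 and 7806. Counts and medians of the lists are given with and without HS replicate 1. So are single genes whose call HS replicate 1 changed or whose log2 enrichment it moved by over 1.5 times. When MB replicate 2 was left out edgeR called 0 genes in either direction, while 6596 genes had an unadjusted p under 0.05. When MB replicate 3 was left out the calls were 0 and 1, with 6356 such genes. The replicate numbers were also taken to pair the libraries, and a fit that blocked on them called 5079 genes (21.4%) MB-enriched and 4026 (17.0%) HS-enriched. Counts of a list under this block are given where either differs by more than 1.5 times. They stand against the shares of all genes under the block. Labels do not say whether replicates came from separate clutches, so the p-values measure the spread between these libraries. Of 28 tissue markers 21 matched 1 tested gene each, over 13 of the 14 tissues, and all 21 were above 0 in every library, with 1.69 CPM the lowest value. Cartilage had no matched marker. Between replicates of such mixtures, fewer cells of a type and less RNA per cell cannot be told apart. A change of absolute amount in 1 fraction cannot be seen either, since CPM are shares of a library.

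Genes for membrane or secreted products had the higher median enrichment in every tissue examined. Of 464 genes on the membrane or secreted lists, 205 were MB-enriched (44.2%, against 12.4% of all genes) and 12 were HS-enriched (2.59%, against 13.3%), with a median of 0.91. Of 366 genes on the soluble lists, 25 were MB-enriched (6.83%) and 121 were HS-enriched (33.1%), with a median of -0.54. The difference between the medians was above 0 in 14 of 14 tissues, with 0.21 in cartilage, bone and notochord at the least and 2.38 in intestine at the most. It was also above 0 in each of the 3 replicate pairs in 12 tissues, and not in replicate pair 1 of cartilage, bone and notochord (difference -0.32) or of pronephros and ionocytes (-0.04). Among the 12, the difference in replicate pair 1 was close to 0 in pigment cells (0.01), epidermis (0.01), endothelium (0.02) and erythrocytes (0.07). Without HS replicate 1 the order was the same in 14 of 14 tissues, with 308 MB-enriched and 17 HS-enriched genes on the membrane or secreted lists, and 52 and 193 on the soluble lists (42 and 146 with the block). Without MB replicate 2, where no gene passed the adjusted threshold, 210 genes of the membrane or secreted lists were higher and 12 lower at an unadjusted p under 0.05, and of the soluble lists 26 and 139. Over all 23283 genes tested in that fit, 2945 were higher and 3651 lower. Medians over all single libraries left out lay between 0.84 and 1.01 for membrane or secreted products and between -0.62 and -0.49 for soluble ones.

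**Figure D1:**
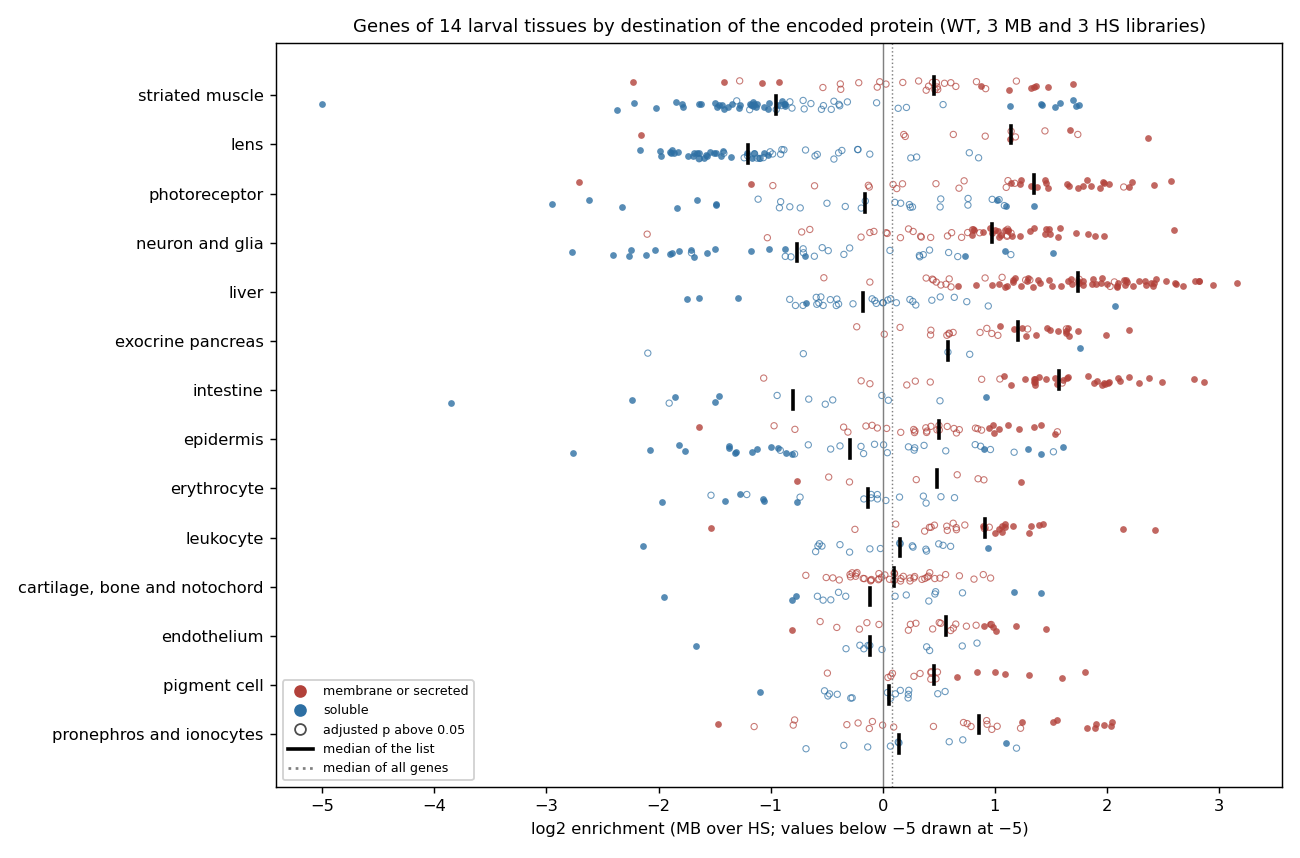
Log2 enrichment (MB over HS) of every tested member of the tissue lists, by tissue (rows), with membrane or secreted products and soluble products drawn apart, filled where the adjusted p was at most 0.05 and open where it was above, and a bar at each list's median. One actin gene at -9.71 is drawn at -5. The membrane or secreted median lies to the right of the soluble one in all 14 tissues, farthest in intestine (2.38 apart) and least in cartilage, bone and notochord (0.21 apart).

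Genes for soluble products of muscle were called on both sides. Of these 61 genes 8 were MB-enriched (13.1%, near the 12.4% of all genes) and 33 were HS-enriched (54.1%, against 13.3%, median -0.95, and -0.86 with 8 and 42 without HS replicate 1). All 8 were sarcomeric myosin heavy chains, the motor proteins of the thick filament. myhz1.2, a fast-muscle heavy chain, had 5396, 4119 and 6087 CPM in MB libraries, against 2123, 1125 and 1404 CPM in HS libraries (log2 1.75, SE 0.34, adjusted p = 0.0138). Its 3 MB libraries lay above its 3 HS libraries by a wide margin, as in the plot of gene levels by library. myhz2 (log2 1.73, SE 0.34, adjusted p = 0.0142), myhz1.3 (log2 1.70, SE 0.32, adjusted p = 0.0135) and the slow-muscle smyhc1 (log2 1.41, SE 0.24, adjusted p = 0.0098) showed the same order. Tandem copies of fast myosin genes are nearly identical, so the split of reads among them is uncertain. Over the 10 sarcomeric heavy chains, a group chosen after the values were seen, 8 were MB-enriched and 0 HS-enriched (median 1.48, and 1.75 with 8 and 0 without HS replicate 1). Of the remaining 51 soluble muscle genes 0 were MB-enriched and 33 HS-enriched (median -1.13, and -1.04 with 0 and 42 without HS replicate 1). That 0 with all libraries follows from the choice of the group, which held all 8 MB-enriched genes.

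A sarcomeric actin and several enzymes of muscle cytosol lay on the other side. actc1b, a sarcomeric actin and one of the most abundant mRNAs of the larva, had 6184, 4389 and 4851 CPM in MB libraries, against 19604, 15323 and 12423 CPM in HS libraries (log2 -1.62, SE 0.32, adjusted p = 0.0146). The creatine kinases that buffer ATP in muscle cytosol, ckma (log2 -1.28, SE 0.24, adjusted p = 0.0128) and ckmb (log2 -1.42, SE 0.28, adjusted p = 0.0153), and the muscle enolase ENO3 (log2 -1.84, SE 0.29, adjusted p = 0.00826) were HS-enriched, and no library of either group overlapped for any of them. Symbols in capitals are human-style names that the reference table gives to the zebrafish identifier. Among genes chosen after their values were seen, the calcium buffer pvalb1 (log2 -1.50, SE 0.29, adjusted p = 0.014), the tropomyosin tpma (log2 -1.18, SE 0.23, adjusted p = 0.0151) and the troponin T gene tnnt2e (log2 -2.22, SE 0.30, adjusted p = 0.00647) were HS-enriched as well. NEB, which encodes nebulin, the giant ruler of the thin filament, had 201, 214 and 255 CPM in MB libraries, against 211, 183 and 214 CPM in HS libraries, with overlapping groups (log2 0.14, SE 0.20, adjusted p = 0.638). Myosin light chains, which clasp the heavy chain's neck, went with the soluble genes: 0 of 14 were MB-enriched and 8 were HS-enriched (median -0.94, and -0.96 with 0 and 11 without HS replicate 1), among them MYL2 (log2 -1.36, SE 0.22, adjusted p = 0.00941). The light chains were also set apart after the values were seen.

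Of 34 muscle membrane genes 7 were MB-enriched (20.6%, against 12.4% of all genes) and 4 were HS-enriched (11.8%, against 13.3%), so that the HS share was near that of all genes (median 0.45, and 0.52 with 14 and 5 without HS replicate 1). The muscle sodium channel scn4ab, which carries the action potential, had 31.3, 32.4 and 32.9 CPM in MB libraries, against 11.7, 10.0 and 8.09 CPM in HS libraries (log2 1.70, SE 0.20, adjusted p = 0.00544), and the acetylcholine receptor subunit chrna1 of the neuromuscular junction, chosen after its values were seen, was MB-enriched (log2 1.12, SE 0.31, adjusted p = 0.0356). jph2, a junctophilin that ties the sarcoplasmic reticulum to the cell surface and has its membrane segment at the end of the chain, had 49.5, 34.1 and 37.5 CPM in MB libraries, against 278, 155 and 133 CPM in HS libraries (log2 -2.22, SE 0.34, adjusted p = 0.00787). The ryanodine receptor RYR3, the calcium release channel, was also HS-enriched (log2 -0.93, SE 0.24, adjusted p = 0.0307). Calcium pumps of the sarcoplasmic reticulum differed. atp2a1 had 3381, 3249 and 4081 CPM in MB libraries, against 3216, 2387 and 2050.2 CPM in HS libraries (log2 0.48, SE 0.28, adjusted p = 0.222, and log2 0.69 with an adjusted p of 0.0467 without HS replicate 1). atp2a1l had 1038, 837 and 902 CPM in MB libraries, against 4070.2, 1684 and 1664 CPM in HS libraries (log2 -1.42, SE 0.40, adjusted p = 0.0401, and log2 -0.85 without HS replicate 1). All libraries of the groups were apart in both, in opposite directions, and only the second passed the test. The highest HS value of each pump was that of HS replicate 1.

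The medians of the 2 lens lists lay farther apart than those of the photoreceptors, the other tissue of the eye examined. Of 55 genes for soluble lens products, most of them crystallins, the packed proteins that give the lens its refraction, 0 were MB-enriched and 29 were HS-enriched (median -1.21, and -1.43 with 1 and 45 without HS replicate 1). crygm2d1, one of the many gamma-M crystallins, had 246, 278 and 286 CPM in MB libraries, against 800.5, 1424 and 1405 CPM in HS libraries (log2 -2.16, SE 0.29, adjusted p = 0.00646). crygm2d10 had 430.1, 484 and 514 CPM in MB libraries, against 850.3, 2077 and 2149 CPM in HS libraries (log2 -1.83, SE 0.38, adjusted p = 0.017). HS replicate 1 was the lowest HS library in both and still above every MB library. Gamma-M crystallin genes are near-identical copies whose reads the counting could divide among them. CRYBB1, a beta crystallin, had 698, 1097 and 1129.5 CPM in MB libraries, against 363, 1227 and 782 CPM in HS libraries, which overlap (log2 0.30, SE 0.45, adjusted p = 0.637, and log2 -0.04 without HS replicate 1). On the membrane list, gja8b, a connexin of lens fibre junctions, had 3.21, 8.07 and 7.77 CPM in MB libraries, against 1.24, 1.18 and 1.29 CPM in HS libraries (log2 2.36, SE 0.38, adjusted p = 0.00912). mipb, a lens aquaporin, had 136, 237 and 225 CPM in MB libraries, against 38.0, 71.3 and 78.9 CPM in HS libraries (log2 1.67, SE 0.35, adjusted p = 0.0177). The cystine exchanger slc7a11, on that list but active in other tissues as well, had 93.9, 78.9 and 71.2 CPM in MB libraries, against 704, 238 and 144 CPM in HS libraries (log2 -2.15, SE 0.57, adjusted p = 0.0321, and log2 -1.23 without HS replicate 1), with HS replicate 1 well above the rest. In all 12 lens membrane genes the median was 1.14, with 3 MB-enriched and 1 HS-enriched, and without HS replicate 1 it was 0.87, with 9 and 1 (8 and 1 with the block).

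In photoreceptors the mRNAs of the cone opsins, the light-sensing proteins, were MB-enriched, while mRNAs of the cascade the opsins drive went both ways. Of 38 membrane genes 22 were MB-enriched and 2 were HS-enriched (median 1.35, and 1.46 with 30 and 3 without HS replicate 1). All 6 cone opsin genes of the list that were tested were MB-enriched (median 1.8, and 1.75 with 6 and 0 without HS replicate 1), a group chosen after its values were seen. The ultraviolet cone opsin opn1sw1 had 1005, 1431 and 1527 CPM in MB libraries, against 235, 312 and 305 CPM in HS libraries (log2 2.22, SE 0.27, adjusted p = 0.00557), and the red cone opsin opn1lw2 was alike (log2 1.94, SE 0.25, adjusted p = 0.00592). The MB and HS libraries did not overlap in either gene. The 2 HS-enriched genes were both subunits of the cyclic nucleotide-gated channel, which closes when light lowers cGMP. cngb3.1 had 2.55, 1.71 and 1.65 CPM in MB libraries, against 25.6, 6.64 and 6.57 CPM in HS libraries (log2 -2.71, SE 0.59, adjusted p = 0.0188, and log2 -1.75 without HS replicate 1). cnga3b had 15.7, 13.6 and 15.8 CPM in MB libraries, against 46.0, 24.3 and 31.4 CPM in HS libraries (log2 -1.17, SE 0.26, adjusted p = 0.0207). Over the 7 subunits of this channel, also a group chosen after its values were seen, 0 were MB-enriched and 2 HS-enriched (median -0.61, and -0.23 with 2 and 3 without HS replicate 1, and 1 and 2 with the block).

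Among the 31 soluble photoreceptor genes 3 were MB-enriched (9.68%, against 12.4% of all genes) and 7 were HS-enriched (22.6%, against 13.3%, median -0.16, and -0.32 with 6 and 13 without HS replicate 1, and 7 and 9 with the block). The cone transducin beta subunit gnb3b had 175, 252 and 213 CPM in MB libraries, against 1091, 569.5 and 616 CPM in HS libraries (log2 -1.83, SE 0.33, adjusted p = 0.0115). tulp1b, a tubby-like protein of the photoreceptor, had 23.1, 15.3 and 15.3 CPM in MB libraries, against 228, 91.2 and 94.6 CPM in HS libraries (log2 -2.95, SE 0.43, adjusted p = 0.00739). The guanylyl cyclase activator guca1c (log2 -2.62, SE 0.49, adjusted p = 0.0133) and the phosphodiesterase gamma subunit pde6ha (log2 -1.48, SE 0.31, adjusted p = 0.0172), both chosen after their values were seen, were HS-enriched too. The transducin alpha subunits are lipid-anchored partners of the opsins. gnat2 of cones had 262, 459 and 417 CPM in MB libraries, against 97.3, 415 and 448 CPM in HS libraries (log2 0.25, SE 0.54, adjusted p = 0.756, and log2 -0.19 without HS replicate 1), where HS replicate 1 was far below the other HS libraries, and GNAT1 of rods had 55.5, 82.5 and 82.9 CPM in MB libraries, against 25.5, 37.6 and 46.1 CPM in HS libraries (log2 1.02, SE 0.28, adjusted p = 0.038). The cone arrestin arr3b, which quenches the opsin, was MB-enriched (log2 1.1, SE 0.29, adjusted p = 0.031).

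With all libraries liver and intestine held the largest shares of MB-enriched genes among the membrane or secreted lists. Of 72 liver genes for plasma proteins, receptors and ER enzymes 55 were MB-enriched and 0 were HS-enriched (median 1.74, and 1.6 with 65 and 1 without HS replicate 1). The apolipoprotein genes were abundant. apobb.1, the large scaffold of lipoprotein particles, had 1125, 2546 and 2553 CPM in MB libraries, against 146, 553 and 623 CPM in HS libraries (log2 2.24, SE 0.59, adjusted p = 0.0325). apoa2 had 1933, 3358 and 3347 CPM in MB libraries, against 359, 1032 and 1117 CPM in HS libraries (log2 1.78, SE 0.47, adjusted p = 0.033). apoa1b had 1678, 3052 and 3074 CPM in MB libraries, against 687, 844 and 889 CPM in HS libraries (log2 1.69, SE 0.32, adjusted p = 0.0129). MB replicate 1 was the lowest MB library in all 3, and in apobb.1 and apoa2 HS replicate 1 was the lowest HS library by more than 2-fold. Transferrin tfa, chosen after its values were seen, had a narrower spread, 701, 744 and 688 CPM in MB libraries, against 371, 339 and 374 CPM in HS libraries (log2 0.98, SE 0.20, adjusted p = 0.0162). Among the larger log2 enrichments, at lower levels, were those of asgrl1, an asialoglycoprotein receptor-like gene (log2 3.16, SE 0.45, adjusted p = 0.00697), of cyp7a1, the rate-limiting enzyme of bile acid synthesis (log2 2.82, SE 0.38, adjusted p = 0.00641), and of the heparin cofactor gene serpind1 (log2 2.67, SE 0.40, adjusted p = 0.00786).

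Soluble liver products did not share this. Of 34 genes 1 was MB-enriched (2.94%, against 12.4% of all genes) and 4 were HS-enriched (11.8%, near the 13.3% of all genes, median -0.18, and -0.40 with 3 and 13 without HS replicate 1, and 3 and 5 with the block). fabp10a, the fatty acid-binding protein that marks hepatocytes, had 184, 126 and 154 CPM in MB libraries, against 372, 483 and 696 CPM in HS libraries (log2 -1.74, SE 0.30, adjusted p = 0.0106). BHMT, which remethylates homocysteine, had 814, 859 and 809.8 CPM in MB libraries, against 1223, 1394 and 1069.6 CPM in HS libraries, apart in all libraries but short of the threshold (log2 -0.57, SE 0.22, adjusted p = 0.0944, and log2 -0.57 with an adjusted p of 0.0381 without HS replicate 1). The 1 MB-enriched gene was haao, a dioxygenase of tryptophan breakdown, with 3.08, 7.28 and 6.61 CPM in MB libraries, against 1.27, 1.43 and 1.33 CPM in HS libraries (log2 2.07, SE 0.36, adjusted p = 0.0105).

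In exocrine pancreas 15 of 30 secreted products were MB-enriched and 0 HS-enriched (median 1.21, and 1.23 with 18 and 1 without HS replicate 1). cela1.3, an elastase, had 18.9, 6.17 and 13.4 CPM in MB libraries, against 3.66, 1.99 and 2.75 CPM in HS libraries (log2 2.2, SE 0.44, adjusted p = 0.0156). The secreted phospholipase pla2g1b had 92.6, 33.2 and 57.0 CPM in MB libraries, against 14.7, 13.1 and 18.3 CPM in HS libraries (log2 1.99, SE 0.38, adjusted p = 0.0135). prss1, a trypsinogen and the most abundant of the list, had 3059, 972 and 1758 CPM in MB libraries, against 2654, 1322 and 1761 CPM in HS libraries, with no difference beyond the spread (log2 0.01, SE 0.46, adjusted p = 0.985). Replicate 1 was the highest MB library in all 3, and these genes differed about 3-fold among MB libraries. Of 5 soluble pancreas genes 1 was MB-enriched and 0 HS-enriched (median 0.58, and 0.19 with 2 and 1 without HS replicate 1, and 2 and 2 with the block).

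The intestine had the widest gap between its 2 lists. Of 40 membrane or secreted products 31 were MB-enriched and 0 HS-enriched (median 1.57, and 1.58 with 32 and 0 without HS replicate 1). Of 14 soluble ones 1 was MB-enriched and 5 HS-enriched (median -0.80, and -1.03 with 1 and 9 without HS replicate 1). abcg5, a subunit of the sterol exporter of the brush border, had 1.42, 5.05 and 5.16 CPM in MB libraries, against 0.295, 0.596 and 0.657 CPM in HS libraries (log2 2.87, SE 0.56, adjusted p = 0.0144). ESPN, an actin-bundling protein of microvilli and stereocilia, had 11.6, 4.48 and 4.20 CPM in MB libraries, against 209, 49.1 and 34.1 CPM in HS libraries (log2 -3.85, SE 0.81, adjusted p = 0.0174), the lowest log2 enrichment of the list, with HS replicate 1 more than 4-fold above the other HS libraries and -2.62 without it. The intracellular lipid carrier FABP2 had 313, 353 and 328 CPM in MB libraries, against 273, 771 and 865 CPM in HS libraries (log2 -0.94, SE 0.42, adjusted p = 0.129). Its HS replicate 1 lay below every MB library and its other HS libraries above, and without it the log2 enrichment was -1.31 (adjusted p = 0.00103).

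In neurons and glia, of 53 genes for membrane or secreted products 28 were MB-enriched and 0 HS-enriched (median 0.98, and 1.09 with 44 and 0 without HS replicate 1, and 33 and 2 with the block). Of 38 soluble ones 3 were MB-enriched and 17 HS-enriched (median -0.76, and -0.90 with 7 and 26 without HS replicate 1, and 5 and 19 with the block). The glial glutamate transporter slc1a2b had 363, 507 and 496 CPM in MB libraries, against 144, 127 and 114 CPM in HS libraries (log2 1.83, SE 0.23, adjusted p = 0.00592), its relative slc1a3b had 19.5, 13.9 and 13.3 CPM in MB libraries, against 4.19, 2.30 and 1.34 CPM in HS libraries (log2 2.59, SE 0.43, adjusted p = 0.00956), and the GABA transporter slc6a1b was MB-enriched as well (log2 1.15, SE 0.21, adjusted p = 0.0128). ELAVL3, an RNA-binding protein of neurons, had 346, 366 and 329 CPM in MB libraries, against 1334, 1463 and 1461 CPM in HS libraries (log2 -2.03, SE 0.21, adjusted p = 0.00472), and ELAVL4 was alike (log2 -2.11, SE 0.23, adjusted p = 0.00472). The libraries of each group lay within a narrow range in both. The neurofilament gene nefmb had 144, 120.5 and 125 CPM in MB libraries, against 1522, 573 and 566 CPM in HS libraries (log2 -2.77, SE 0.44, adjusted p = 0.00872), with HS replicate 1 above the others and -2.13 without it. Against the direction of their list were mapta, a tau gene (log2 1.52, SE 0.40, adjusted p = 0.0326), and the synapsin gene syn2b (log2 1.09, SE 0.32, adjusted p = 0.0464).

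In the epidermis, of 38 soluble genes 4 were MB-enriched (10.5%, near the 12.4% of all genes) and 14 HS-enriched (36.8%, against 13.3%, median -0.29, and -0.33 with 7 and 18 without HS replicate 1, and 7 and 15 with the block). Of 37 membrane or secreted ones 9 were MB-enriched and 1 HS-enriched (median 0.50, and 0.79 with 22 and 2 without HS replicate 1, and 10 and 2 with the block). The surface keratin krt4 had 3759, 2235 and 2131 CPM in MB libraries, against 5594, 7520.1 and 7158 CPM in HS libraries (log2 -1.32, SE 0.33, adjusted p = 0.027). cyt1, a type I keratin, had 1588, 851 and 925 CPM in MB libraries, against 4573, 4957 and 4626 CPM in HS libraries (log2 -2.07, SE 0.32, adjusted p = 0.00827). MB replicate 1 was the highest MB library in both, still below every HS library. Over the 21 keratins 0 were MB-enriched and 10 HS-enriched (median -0.81, and -0.86 with 0 and 12 without HS replicate 1, and 1 and 11 with the block). Of desmosomal plaque proteins, which are large and cytosolic, periplakin ppl had 453, 295 and 233.7 CPM in MB libraries, against 129, 117 and 122.7 CPM in HS libraries (log2 1.41, SE 0.28, adjusted p = 0.0153), and desmoplakin dspa was MB-enriched (log2 1.3, SE 0.31, adjusted p = 0.0249). The basement membrane protein fras1 was MB-enriched (log2 1.53, SE 0.27, adjusted p = 0.0115), while the adhesion protein epcam had 172, 191 and 203 CPM in MB libraries, against 168, 132 and 131 CPM in HS libraries (log2 0.39, SE 0.20, adjusted p = 0.184, and log2 0.52 with an adjusted p of 0.015 without HS replicate 1). The 1 HS-enriched member was the claudin cldng, at low level, with 0.129, 0.0851 and 0.186 CPM in MB libraries, against 0.207, 0.494 and 0.510 CPM in HS libraries (log2 -1.64, SE 0.46, adjusted p = 0.0386).

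Blood cells were followed through 4 lists. Of 20 soluble erythrocyte genes 0 were MB-enriched and 6 HS-enriched (median -0.14, and -0.43 with 3 and 9 without HS replicate 1, and 1 and 9 with the block), 5 of them among the 8 hemoglobin genes (median -1.06, and -1.24 with 0 and 6 without HS replicate 1). The beta globin hbbe2 had 46.5, 42.2 and 36.6 CPM in MB libraries, against 100.1, 133 and 98.6 CPM in HS libraries (log2 -1.40, SE 0.21, adjusted p = 0.00798). The alpha globin hbae3 had 124.4, 145 and 114 CPM in MB libraries, against 161, 267 and 212 CPM in HS libraries (log2 -0.74, SE 0.25, adjusted p = 0.0647, and log2 -0.90 with an adjusted p of 0.00437 without HS replicate 1; adjusted p = 0.0373 with the block). Globin genes are close copies whose reads may be shared. Of 8 erythrocyte membrane genes 1 was MB-enriched and 1 HS-enriched (12.5% each, near the shares of all genes, median 0.48, and 0.62 with 3 and 1 without HS replicate 1, and 2 and 1 with the block). The first was the glucose transporter slc2a1a (log2 1.23, SE 0.32, adjusted p = 0.0313), the other the iron transporter slc11a2 (log2 -0.77, SE 0.17, adjusted p = 0.0199). In leukocytes 14 of 30 membrane or secreted products were MB-enriched and 1 HS-enriched (median 0.91, and 0.87 with 18 and 1 without HS replicate 1), among them lect2l, a chemotactic protein (log2 2.43, SE 0.43, adjusted p = 0.0115), and lysozyme lyz, with 33.5, 37.5 and 40.1 CPM in MB libraries, against 17.5, 12.8 and 25.2 CPM in HS libraries (log2 1.0, SE 0.27, adjusted p = 0.0351). The chemokine receptor cxcr1 was HS-enriched, with 1.27, 1.47 and 1.66 CPM in MB libraries, against 5.14, 4.28 and 3.38 CPM in HS libraries (log2 -1.54, SE 0.25, adjusted p = 0.00953). Of 19 soluble leukocyte genes 1 was MB-enriched, the actin bundler LCP1 (log2 0.94, SE 0.27, adjusted p = 0.0403), and 1 was HS-enriched (median 0.15, and -0.0045 with 2 and 5 without HS replicate 1).

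In cartilage, bone and notochord the calls among matrix genes depended on HS replicate 1. Of 43 membrane or secreted products, most of them matrix, 0 were called in either direction with all libraries (median 0.10), against 15 MB-enriched and 0 HS-enriched without HS replicate 1 (median 0.40) and 3 and 0 with the block. Over all genes the MB-enriched share also rose, from 12.4% to 29.8% without HS replicate 1 and to 21.4% with the block. Medians of these 43 over single libraries left out ran from -0.13 to 0.40, and replicate pair 1 gave -0.31. Of 16 soluble genes 2 were MB-enriched (12.5%, near the 12.4% of all genes) and 3 HS-enriched (18.8%, against 13.3%, median -0.11, and -0.20 with 3 and 5 without HS replicate 1). The collagen chain col1a1a had 2793, 2579 and 3113 CPM in MB libraries, against 2002, 1281 and 1075 CPM in HS libraries (log2 0.96, SE 0.30, adjusted p = 0.0546; adjusted p = 0.0286 with the block), and without HS replicate 1 it was MB-enriched (1.26, adjusted p = 0.00431). col1a2, the partner chain, had 1421, 1163 and 1375 CPM in MB libraries, against 1524, 850.4 and 679 CPM in HS libraries, with HS replicate 1 above every MB library (log2 0.37, SE 0.34, adjusted p = 0.434; without it 0.79, adjusted p = 0.0172). Over all 56 collagen chains 1 was MB-enriched and 0 HS-enriched (median 0.21), against 33 and 0 without HS replicate 1 (median 0.85) and 8 and 1 with the block. Their median over single libraries left out ran from -0.18 to 0.85, and replicate pair 1 gave -0.27, so its sign also depended on the libraries. The 1 call was col4a5 of basement membranes, with 186, 204 and 225 CPM in MB libraries, against 131, 82.9 and 61.3 CPM in HS libraries (log2 1.16, SE 0.30, adjusted p = 0.0311). papss1, a cytosolic enzyme that makes the sulfate donor of proteoglycans, was MB-enriched (log2 1.41, SE 0.37, adjusted p = 0.0323).

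Vessels, pigment cells and kidney had the same order, with the medians closer than in liver or intestine. Of 24 endothelial membrane genes 6 were MB-enriched and 1 HS-enriched (median 0.56, and 0.71 with 14 and 1 without HS replicate 1, and 9 and 2 with the block). The lipid receptor s1pr1 had 45.1, 66.3 and 61.0 CPM in MB libraries, against 16.04, 22.6 and 24.05 CPM in HS libraries (log2 1.46, SE 0.25, adjusted p = 0.00999), and the vascular cadherin cdh5 was MB-enriched (log2 0.96, SE 0.29, adjusted p = 0.0486), while the scavenger receptor stab2 had 9.12, 7.84 and 8.29 CPM in MB libraries, against 15.9, 13.8 and 14.8 CPM in HS libraries (log2 -0.81, SE 0.18, adjusted p = 0.0208). In pigment cells 7 of 18 membrane genes were MB-enriched and 0 HS-enriched (median 0.45, and 0.81 with 13 and 0 without HS replicate 1). The melanosome matrix genes differed. pmelb had 43.1, 59.1 and 54.7 CPM in MB libraries, against 11.3, 16.3 and 17.4 CPM in HS libraries (log2 1.8, SE 0.24, adjusted p = 0.00641). pmela had 264, 229 and 236.1 CPM in MB libraries, against 259.6, 224 and 204 CPM in HS libraries, which overlap (log2 0.09, SE 0.20, adjusted p = 0.772). In pronephros and ionocytes 9 of 28 membrane genes were MB-enriched and 1 HS-enriched (median 0.86, and 0.97 with 14 and 1 without HS replicate 1, and 13 and 2 with the block). The endocytic receptor lrp2a of the proximal tubule had 29.9, 37.3 and 39.0 CPM in MB libraries, against 7.77, 8.93 and 9.08 CPM in HS libraries (log2 2.04, SE 0.20, adjusted p = 0.00472). The calcium channel trpv6 had 107, 138 and 193 CPM in MB libraries, against 27.4, 31.5 and 47.7 CPM in HS libraries (log2 2.04, SE 0.32, adjusted p = 0.0083). Of 11 soluble genes of endothelium 0 were MB-enriched and 1 HS-enriched (9.09%, against 13.3% of all genes, median -0.12, and -0.26 with 4 and 2 without HS replicate 1, and 2 and 1 with the block). In pigment cells the counts were 0 and 1 of 16 (6.25% HS-enriched, median 0.06, and -0.03 with 1 and 4 without HS replicate 1). In pronephros and ionocytes they were 1 and 0 of 10 (10% MB-enriched, near the 12.4% of all genes, median 0.14, and -0.06 with 4 and 2 without HS replicate 1, and 2 and 1 with the block).

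**Figure D2:**
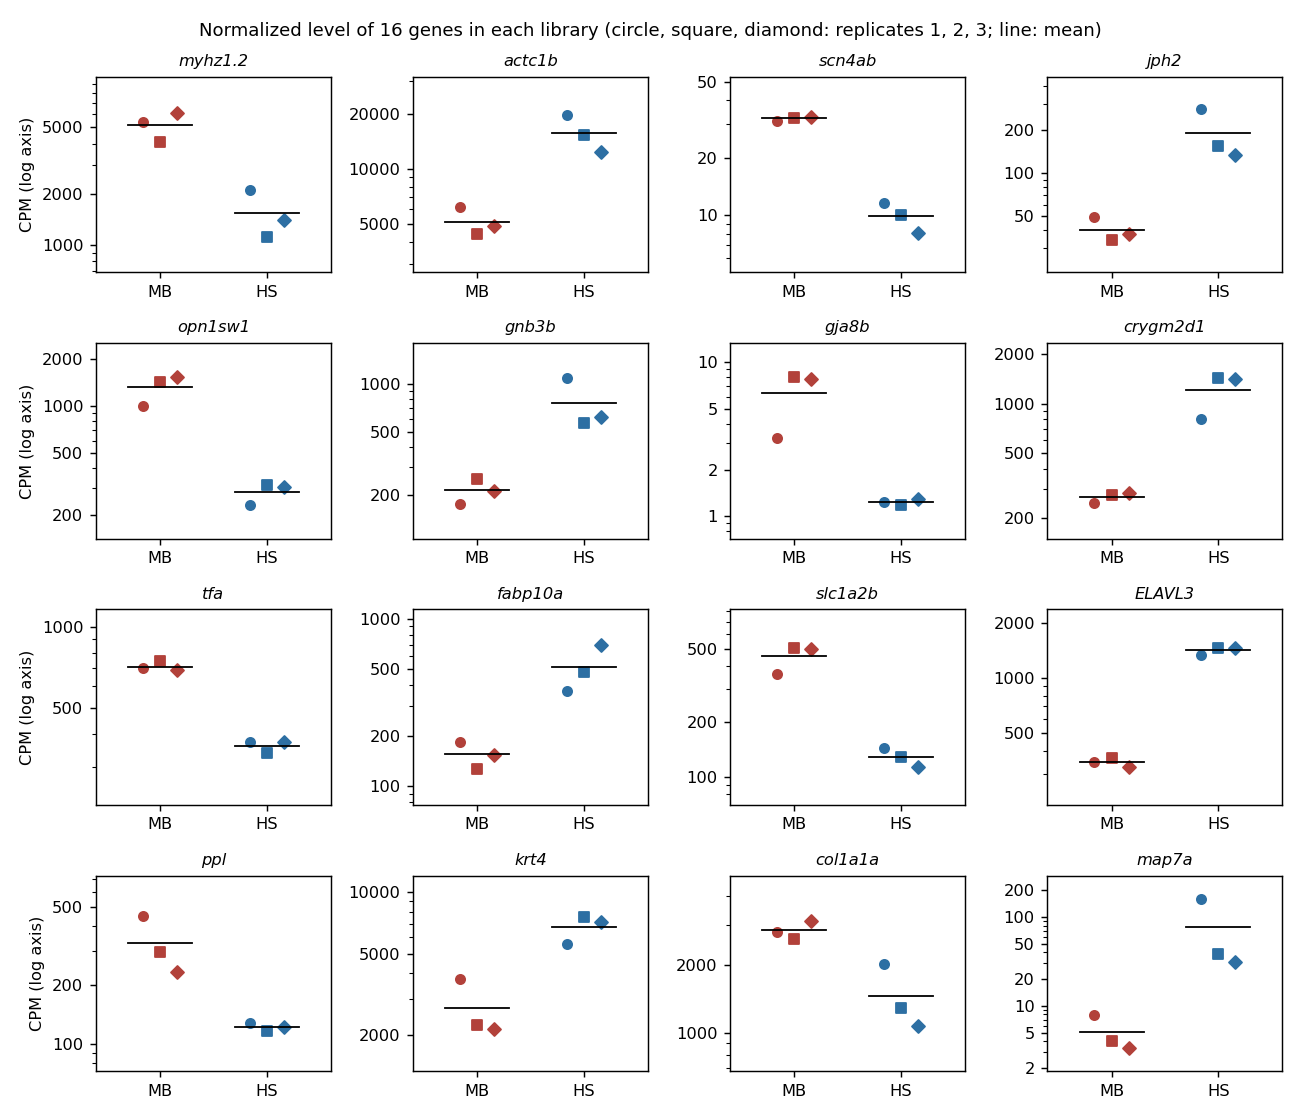
CPM of 16 genes in each library on a log axis (MB left, HS right; circle, square and diamond are replicates 1, 2 and 3, and the line is the mean of 3). MB libraries lie above HS libraries for myhz1.2, scn4ab, opn1sw1, gja8b, tfa, slc1a2b, ppl and col1a1a and below them for the other 8 genes, with HS replicate 1 the farthest point for map7a (160.2 CPM, beside 38.8 and 31.4 CPM in HS replicates 2 and 3).

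The protein classes, taken over the whole larva, had the mRNAs of mitochondrial DNA at the top (median 2.67). Several classes of the secretory pathway came next, and crystallins and ribosomal proteins were at the bottom. Peptide hormones and neuropeptides stood high, with 35 of 57 MB-enriched and 0 HS-enriched (median 1.26, and 1.18 with 42 and 2 without HS replicate 1), among them the somatostatin gene sst2 (log2 2.42, SE 0.62, adjusted p = 0.0297). So did UDP-glucuronosyltransferases, ER enzymes that attach sugar to drugs and bilirubin, with 15 of 26 and 0 (median 1.35, and 1.31 with 18 and 0 without HS replicate 1), among them ugt5b1 (log2 2.28, SE 0.43, adjusted p = 0.0131), and cytochromes P450, with 34 of 63 and 1 (median 1.25, and 1.24 with 41 and 4 without HS replicate 1). Lysosomal enzymes, which pass through the ER on their way, had 19 of 44 and 0 (median 0.86, and 0.94 with 32 and 0 without HS replicate 1). Matrix proteins other than collagens also depended on HS replicate 1: of 50 laminins, fibrillins and other matrix glycoproteins 7 were MB-enriched (14%, near the 12.4% of all genes) and 1 HS-enriched with all libraries (median 0.38, and 0.72 with 31 and 2 without HS replicate 1). lama1, a laminin chain, was MB-enriched (log2 1.88, SE 0.34, adjusted p = 0.0121).

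The secretory machinery was read through lists of ER and Golgi proteins and of the coats and particles that act on these membranes from the cytosol. ER chaperones and foldases had 14 of 56 MB-enriched and 1 HS-enriched (median 0.35, and 0.56 with 34 and 1 without HS replicate 1), among them uggt1, the glucosyltransferase that senses misfolded glycoproteins (log2 1.53, SE 0.32, adjusted p = 0.0177). The 1 HS-enriched member was serpinh1b, the collagen chaperone of the ER lumen, with 78.6, 71.97 and 79.1 CPM in MB libraries, against 321, 188 and 215 CPM in HS libraries (log2 -1.66, SE 0.26, adjusted p = 0.00818). The translocon, oligosaccharyltransferase and signal peptidase had 6 of 24 and 0 (median 0.63, and 0.55 with 15 and 1 without HS replicate 1, and 10 and 0 with the block), among them ostc, a subunit of the oligosaccharyltransferase (log2 1.48, SE 0.27, adjusted p = 0.0124). sec61a1, the channel itself, had 325, 271 and 269 CPM in MB libraries, against 194, 240.0 and 238 CPM in HS libraries (log2 0.37, SE 0.21, adjusted p = 0.22). SEC61G, a small subunit of the same channel with its single segment at the end of the chain, had 175, 97.2 and 100.0 CPM in MB libraries, against 259.9, 273 and 311 CPM in HS libraries (log2 -1.18, SE 0.28, adjusted p = 0.025). Of 6 proteins of the signal recognition particle 1 was MB-enriched (16.7%, against 12.4% of all genes) and 2 HS-enriched (33.3%, against 13.3%, median -0.93, and -0.84 with 1 and 4 without HS replicate 1). SRP54, which binds the signal peptide, was MB-enriched (log2 0.68, SE 0.18, adjusted p = 0.0307). SRP19, which helps assemble the particle, was HS-enriched, with 21.1, 19.2 and 17.4 CPM in MB libraries, against 192, 75.1 and 69.2 CPM in HS libraries (log2 -2.54, SE 0.42, adjusted p = 0.00977). Of 11 p24 cargo receptors 4 were MB-enriched and 0 HS-enriched (median 0.75, and 0.77 with 6 and 0 without HS replicate 1, and 7 and 0 with the block), among them tmed10 (log2 0.94, SE 0.22, adjusted p = 0.0236). Coat subunits, which are cytosolic, had 3 of 19 MB-enriched (15.8%, near the 12.4% of all genes) and 1 HS-enriched (median 0.53, and 0.27 with 8 and 5 without HS replicate 1, and 8 and 1 with the block). COPA of the COPI coat (log2 0.76, SE 0.17, adjusted p = 0.021) and the GTPase sar1b that starts the COPII coat (log2 0.71, SE 0.20, adjusted p = 0.0374) were MB-enriched, and sec23a of the COPII coat was HS-enriched (log2 -0.68, SE 0.20, adjusted p = 0.0411). Golgi glycosyltransferases and sulfotransferases had 31 of 140 and 2 (median 0.71, and 0.84 with 89 and 6 without HS replicate 1, and 58 and 3 with the block), among them the fucosyltransferase fut8b (log2 2.22, SE 0.24, adjusted p = 0.00479).

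Plasma membrane classes held 1231 genes, of which 385 were MB-enriched (31.3%, against 12.4% of all genes) and 21 HS-enriched (1.71%, against 13.3%, median 0.71, and 0.84 with 729 and 37 without HS replicate 1, and 544 and 42 with the block). Without MB replicate 2, 371 of them were higher and 25 lower at an unadjusted p under 0.05. Over all 23283 genes tested in that fit the counts were 2945 and 3651. Medians of the plasma membrane classes ran between 0.31 for claudins and 0.98 for ABC transporters outside mitochondria, which were 0.46 and 1.11 without HS replicate 1. Solute carriers outside the SLC25 family, the largest class, had 133 of 348 MB-enriched and 6 HS-enriched (median 0.83, and 0.93 with 225 and 12 without HS replicate 1, and 182 and 11 with the block). That list was placed whole under the plasma membrane, whatever the membrane of each carrier. Connexins and aquaporins had 14 of 47 and 0 (median 0.74, and 1.02 with 25 and 0 without HS replicate 1), among them cx28.9 (log2 2.76, SE 0.52, adjusted p = 0.0132) and GJA1, the most widespread connexin, with 98.9, 153 and 129.8 CPM in MB libraries, against 59.2, 63.1 and 60.8 CPM in HS libraries (log2 1.06, SE 0.22, adjusted p = 0.0166). Of the 21 HS-enriched exceptions 6 were on the solute carrier list, 5 among TRP, ASIC, P2X and chloride channels, 4 among potassium channels and 2 among claudins. SLC7A6OS (log2 -0.59, SE 0.17, adjusted p = 0.0419) and slc4a1ap (log2 -1.55, SE 0.44, adjusted p = 0.0393, and log2 -0.86 without HS replicate 1), among the 6, are named after carriers and are not carriers themselves. CLDN8, a claudin of tight junctions, had 24.6, 54.5 and 62.2 CPM in MB libraries, against 129.9, 358 and 406 CPM in HS libraries (log2 -2.66, SE 0.53, adjusted p = 0.0148). The clustered protocadherin pcdh2ab2 had 1.04, 0.298 and 0.204 CPM in MB libraries, against 71.9, 11.02 and 12.1 CPM in HS libraries (log2 -5.95, SE 1.06, adjusted p = 0.0116), a locus of repeated gene copies where reads may be shared. TMC1 (log2 -2.48, SE 0.46, adjusted p = 0.0126) and tmc2b (log2 -2.78, SE 0.55, adjusted p = 0.0152), the pore proteins of hair cell mechanotransduction, were both HS-enriched, and so were the potassium channels kcna7 (log2 -2.59, SE 0.67, adjusted p = 0.0304) and kcnj14 (log2 -2.62, SE 0.62, adjusted p = 0.0243). In all 4 HS replicate 1 was more than 2-fold above both other HS libraries, and the log2 enrichments without it were -1.85, -1.91, -1.49 and -1.78.

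Several complexes put a membrane part and a soluble part side by side. In the vacuolar ATPase, the proton pump of lysosomes and of ionocytes, 10 of 12 genes of the membrane sector V0 were MB-enriched and 0 HS-enriched (median 1.07, and 0.95 with 10 and 0 without HS replicate 1), against 1 and 0 of 13 of the soluble sector V1 (median 0.15, and -0.20 with 3 and 3 without HS replicate 1, and 3 and 0 with the block). The proteolipid genes atp6v0cb, with 184, 286 and 284 CPM in MB libraries, against 80.2, 127 and 132 CPM in HS libraries (log2 1.16, SE 0.29, adjusted p = 0.0277), and ATP6V0C (log2 0.88, SE 0.23, adjusted p = 0.0309) form the rotating ring. ATP6V0D1, counted in V0 but lying outside the membrane, had 66.2, 121 and 113 CPM in MB libraries, against 34.7, 142 and 167 CPM in HS libraries (log2 -0.20, SE 0.54, adjusted p = 0.807). ATP6V1G1 of the stalk had 98.5, 126 and 111 CPM in MB libraries, against 64.3, 291 and 322 CPM in HS libraries (log2 -1.01, SE 0.54, adjusted p = 0.191). HS replicate 1 was the lowest of all 6 libraries in both, and without it ATP6V1G1 was HS-enriched (-1.45, adjusted p = 0.000639). The 1 call in V1 was ATP6V1F (log2 0.65, SE 0.18, adjusted p = 0.0364). Cytosolic subunits of voltage-gated channels can be read beside the channels. Of potassium channel beta subunits 0 of 5 were called (median 0.70, and 0.96 with 2 and 1 without HS replicate 1, and 1 and 1 with the block), beside 24 and 4 genes on the potassium channel list (median 0.63, and 0.88 with 54 and 5 without HS replicate 1). Of calcium channel beta subunits 1 of 7 was MB-enriched (14.3%, near the 12.4% of all genes, median 0.47, and 0.84 with 4 and 0 without HS replicate 1, and 2 and 0 with the block). Beside them were 6 and 0 of 26 sodium and calcium channel alpha subunits (23.1% MB-enriched, median 0.83, and 1.19 with 20 and 0 without HS replicate 1, and 11 and 2 with the block). In cholesterol synthesis 4 of 14 ER enzymes were MB-enriched and 0 HS-enriched (median 0.80, and 0.87 with 6 and 1 without HS replicate 1, and 10 and 1 with the block), among them hmgcrb, the rate-limiting reductase (log2 1.07, SE 0.23, adjusted p = 0.0177), and the epoxidase sqlea (log2 1.90, SE 0.38, adjusted p = 0.0156). Of 8 cytosolic enzymes 0 were MB-enriched and 1 HS-enriched (12.5%, near the 13.3% of all genes, median -0.14, and -0.46 with 0 and 3 without HS replicate 1). hmgcs1, one of them, had 31.6, 59.2 and 46.7 CPM in MB libraries, against 21.9, 57.2 and 63.6 CPM in HS libraries (log2 -0.05, SE 0.42, adjusted p = 0.93).

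Some membrane proteins are not docked by the signal recognition particle. Tail-anchored proteins have their only membrane segment at the end of the chain and are inserted after synthesis. Of 60 of them, mostly SNAREs of vesicle fusion, 3 were MB-enriched (5%, against 12.4% of all genes) and 11 HS-enriched (18.3%, against 13.3%, median -0.30, and -0.39 with 7 and 29 without HS replicate 1, and 6 and 14 with the block). The synaptic vesicle SNARE vamp1a had 113, 122 and 108 CPM in MB libraries, against 369, 423 and 388 CPM in HS libraries (log2 -1.78, SE 0.20, adjusted p = 0.00481), and its relative vamp1b was HS-enriched (log2 -2.75, SE 0.54, adjusted p = 0.0146). bnip1a, at low level, was among the 3 on the MB side (log2 1.54, SE 0.31, adjusted p = 0.0158). Proteins held on membranes only by a lipid had medians of -0.17 for Rab GTPases, -0.15 for Ras, Rac, Arf and related GTPases and -0.07 for G protein subunits, which were -0.40, -0.34 and -0.22 without HS replicate 1. Of these 188 genes 11 were MB-enriched (5.85%, below the share of all genes) and 28 HS-enriched (14.9%, near that share, median -0.14, and -0.32 with 40 and 84 without HS replicate 1, and 27 and 33 with the block). kras (log2 -2.87, SE 0.66, adjusted p = 0.0218, and log2 -1.87 without HS replicate 1), rhoaa (log2 -1.42, SE 0.24, adjusted p = 0.0104) and RAB5C (log2 -1.28, SE 0.19, adjusted p = 0.00762) were HS-enriched, and the G protein subunit gnb1b had 258, 265 and 254 CPM in MB libraries, against 524, 1005 and 1017 CPM in HS libraries (log2 -1.71, SE 0.30, adjusted p = 0.0115). Proteins that leave cells without a signal peptide, such as galectins and HMGB proteins, had 1 of 48 MB-enriched (2.08%) and 6 HS-enriched (12.5%, also near the share of all genes, median -0.45, and -0.50 with 3 and 24 without HS replicate 1, and 2 and 9 with the block). lgals2b (log2 -1.36, SE 0.22, adjusted p = 0.00882) and hmgb1a (log2 -0.90, SE 0.21, adjusted p = 0.022) were HS-enriched, and lgals8b, at low level, was the 1 exception (log2 1.38, SE 0.33, adjusted p = 0.0247).

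**Figure D3:**
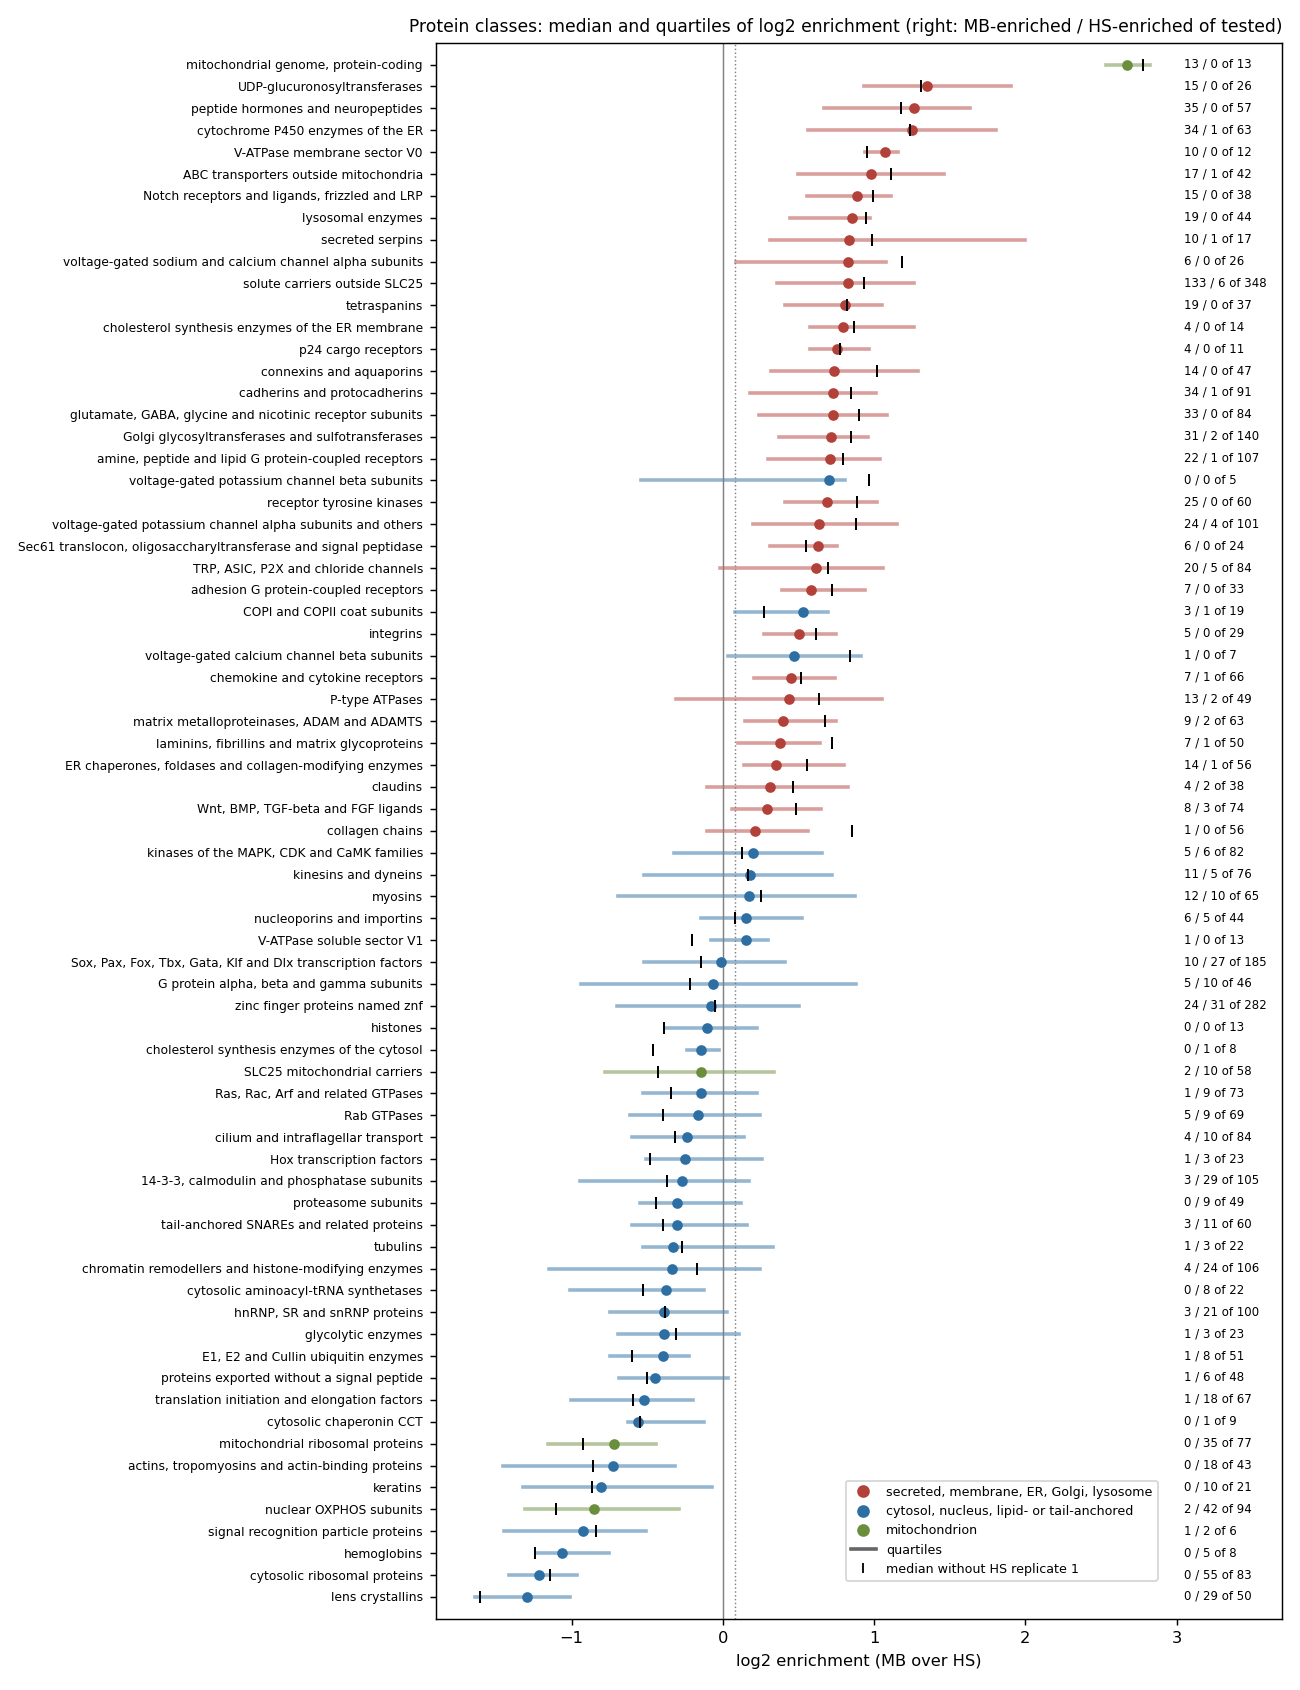
Median log2 enrichment (MB over HS) of each protein class with its quartiles, ordered by median and coloured by the destination of the products, with a black tick at the median without HS replicate 1 and the MB-enriched and HS-enriched counts of all tested members at the right. The 13 mRNAs of mitochondrial DNA are highest (2.67), secretory and membrane classes lie mostly above the all-gene median of 0.08, and crystallins (-1.3) and cytosolic ribosomal proteins (-1.21) are lowest.

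Cytosolic classes together had 46 of 966 genes MB-enriched (4.76%, against 12.4% of all genes) and 237 HS-enriched (24.5%, against 13.3%, median -0.38, and -0.48 with 154 and 466 without HS replicate 1, and 102 and 307 with the block). Nuclear ones had 48 of 753 MB-enriched (6.37%) and 111 HS-enriched (14.7%, near the share of all genes, median -0.14, and -0.14 with 141 and 248 without HS replicate 1, and 84 and 152 with the block). Among ribosomal protein genes (median -1.21, and -1.14 with 1 and 68 without HS replicate 1), rpl29 had 349, 176 and 172 CPM in MB libraries, against 1019, 889.8 and 946 CPM in HS libraries (log2 -2.04, SE 0.34, adjusted p = 0.00951). rpl3 had 2635, 1367 and 1491 CPM in MB libraries, against 4382, 3689 and 3331 CPM in HS libraries, apart in every library (log2 -1.05, SE 0.33, adjusted p = 0.0539, and log2 -0.94 with an adjusted p of 0.0452 without HS replicate 1; adjusted p = 0.0151 with the block). Initiation and elongation factors had 1 of 67 MB-enriched and 18 HS-enriched (median -0.52, and -0.59 with 3 and 38 without HS replicate 1, and 2 and 25 with the block), with EIF3J far out at 81.3, 77.2 and 68.3 CPM in MB libraries, against 746, 576 and 507 CPM in HS libraries (log2 -3.01, SE 0.25, adjusted p = 0.00472). GAPDH was HS-enriched (log2 -1.75, SE 0.28, adjusted p = 0.00851). Cytoplasmic actin actb2 had 3539, 2936 and 2952 CPM in MB libraries, against 3501, 4459.5 and 3757 CPM in HS libraries, which overlap (log2 -0.31, SE 0.25, adjusted p = 0.372). Of nuclear proteins, HDAC1, a histone deacetylase (log2 -1.79, SE 0.39, adjusted p = 0.0194), hoxb3a (log2 -2.40, SE 0.33, adjusted p = 0.00647) and pax5 (log2 -3.25, SE 0.74, adjusted p = 0.0218, and log2 -2.01 without HS replicate 1), transcription factors of brain patterning, were HS-enriched, while the histone methyltransferase kmt2d had 19.6, 19.3 and 20.7 CPM in MB libraries, against 8.65, 5.32 and 3.77 CPM in HS libraries (log2 1.75, SE 0.32, adjusted p = 0.0119) and the splicing factor gene srsf3a, at low level, was MB-enriched (log2 2.78, SE 0.63, adjusted p = 0.0214).

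Chains of other motor proteins were compared as well. Of 41 myosin heavy chains outside the sarcomere 4 were MB-enriched (9.76%, below the share of all genes) and 2 HS-enriched (median 0.28, and 0.43 with 17 and 4 without HS replicate 1, and 9 and 4 with the block). The sarcomeric chains given for muscle are not among them. Of 14 dynein heavy chains 4 were MB-enriched and 0 HS-enriched (median 0.81, and 0.79 with 10 and 0 without HS replicate 1, and 7 and 0 with the block), among them dnah5 of motile cilia (log2 1.18, SE 0.26, adjusted p = 0.0187), against 0 and 4 of 15 dynein light and intermediate chains (median -0.75, and -0.96 with 0 and 12 without HS replicate 1), among them dynlrb2 (log2 -1.79, SE 0.41, adjusted p = 0.0218). Kinesins had 7 of 47 MB-enriched (14.9%, near the 12.4% of all genes) and 1 HS-enriched (median 0.28, and 0.29 with 18 and 7 without HS replicate 1, and 11 and 4 with the block). These groups were chosen after the values were seen, and all of these proteins are cytosolic.

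The mRNAs of mitochondrial proteins encoded in the nucleus were more often HS-enriched than MB-enriched. Nuclear subunits of oxidative phosphorylation had 2 of 94 MB-enriched and 42 HS-enriched (median -0.85, and -1.1 with 5 and 75 without HS replicate 1, and 5 and 47 with the block), the 2 being ndufs8b (log2 1.77, SE 0.35, adjusted p = 0.0146) and UQCRC1, with 57.5, 89.1 and 89.0 CPM in MB libraries, against 34.1, 44.0 and 46.9 CPM in HS libraries (log2 0.91, SE 0.25, adjusted p = 0.0349). Mitochondrial ribosomal proteins had 0 of 77 MB-enriched and 35 HS-enriched (median -0.72, and -0.92 with 0 and 68 without HS replicate 1), among them mrpl52, with 10.6, 8.63 and 8.18 CPM in MB libraries, against 40.02, 42.3 and 37.3 CPM in HS libraries (log2 -2.13, SE 0.19, adjusted p = 0.00472). The SLC25 carriers of the inner membrane, which span it but are imported after synthesis, had 2 of 58 MB-enriched (3.45%, against 12.4% of all genes) and 10 HS-enriched (17.2%, against 13.3%, median -0.14, and -0.43 with 9 and 25 without HS replicate 1, and 7 and 12 with the block). SLC25A42, the coenzyme A carrier, had 6.59, 4.11 and 4.06 CPM in MB libraries, against 37.5, 26.2 and 24.2 CPM in HS libraries (log2 -2.57, SE 0.30, adjusted p = 0.00511), and the 2 exceptions were the citrate carrier slc25a1b (log2 1.24, SE 0.24, adjusted p = 0.0141) and slc25a25b (log2 1.26, SE 0.36, adjusted p = 0.0394). mt-co1, made inside the organelle, had 55831, 29343 and 35181 CPM in MB libraries, against 8170.3, 4746 and 4085 CPM in HS libraries (log2 2.82, SE 0.44, adjusted p = 0.00833).

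Families with members in several compartments set proteins of like fold or like activity side by side. Members of a family grouped by activity need not be related in sequence. Some families, such as the creatine kinases and adenylate kinases, had no secretory member. Over 18 families, 38 of 92 members of the secretory pathway were MB-enriched and 1 HS-enriched (median 0.75, and 0.82 with 61 and 1 without HS replicate 1), against 1 and 21 of 103 cytosolic members (median -0.27, and -0.43 with 9 and 50 without HS replicate 1, and 7 and 25 with the block). Of 27 mitochondrial members 1 was MB-enriched and 3 HS-enriched (11.1%, near the 13.3% of all genes, median -0.38, and -0.52 with 2 and 15 without HS replicate 1, and 3 and 4 with the block). The HSP90 family has a member in each compartment. hsp90b1 of the ER had 136, 166 and 175 CPM in MB libraries, against 108, 79.0 and 79.5 CPM in HS libraries (log2 0.84, SE 0.22, adjusted p = 0.0329), HSP90AB1 of the cytosol had 3594, 2231 and 2376 CPM in MB libraries, against 23209, 7523 and 6522 CPM in HS libraries (log2 -2.18, SE 0.56, adjusted p = 0.0291), and TRAP1, the 1 MB-enriched mitochondrial member of all the families, stood above 0 (log2 0.87, SE 0.23, adjusted p = 0.0326). HS replicate 1 held about 3 times the HSP90AB1 of the other HS libraries, and without it the log2 enrichment was -1.36 (adjusted p = 0.00884). The ER chaperone hspa5 (BiP) of the HSP70 family was MB-enriched (log2 1.25, SE 0.23, adjusted p = 0.0131), while 0 of 8 cytosolic members of that family were called in either direction (median 0.07, and -0.06 with 0 and 1 without HS replicate 1, and 1 and 0 with the block).

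Antioxidant enzymes and lipid carriers gave further cases. The secreted superoxide dismutase sod3a had 2.98, 4.55 and 4.60 CPM in MB libraries, against 1.03, 0.733 and 0.791 CPM in HS libraries (log2 2.26, SE 0.29, adjusted p = 0.00588). The cytosolic SOD1 had 79.5, 86.1 and 86.7 CPM in MB libraries, against 93.8, 107 and 124.5 CPM in HS libraries (log2 -0.36, SE 0.19, adjusted p = 0.193, and log2 -0.46 with an adjusted p of 0.0173 without HS replicate 1). The mitochondrial SOD2 had 39.8, 47.5 and 47.8 CPM in MB libraries, against 38.7, 76.7 and 90.9 CPM in HS libraries (log2 -0.61, SE 0.32, adjusted p = 0.187, and log2 -0.90 with an adjusted p of 0.00229 without HS replicate 1). Only the first passed the test with all libraries, and without HS replicate 1 all 3 did. The peroxiredoxin prdx4 of the ER had 71.1, 59.2 and 65.6 CPM in MB libraries, against 51.2, 35.6 and 39.2 CPM in HS libraries (log2 0.64, SE 0.21, adjusted p = 0.0603, and log2 0.80 with an adjusted p of 0.0027 without HS replicate 1; adjusted p = 0.0331 with the block), and cytosolic prdx6 had 43.0, 49.9 and 47.1 CPM in MB libraries, against 33.6, 59.8 and 64.1 CPM in HS libraries (log2 -0.17, SE 0.27, adjusted p = 0.664, and log2 -0.41 with an adjusted p of 0.0214 without HS replicate 1). Among carriers of fatty acids and retinol 3 of 6 secreted lipocalin-type members were MB-enriched and 0 HS-enriched (median 0.95, and 1.03 with 4 and 0 without HS replicate 1), among them lcn15 (log2 2.94, SE 0.36, adjusted p = 0.00552) and the retinol carrier rbp4l, with 485, 542 and 609 CPM in MB libraries, against 217, 219 and 227 CPM in HS libraries (log2 1.3, SE 0.20, adjusted p = 0.00836). Of 15 cytosolic members 0 were MB-enriched and 8 HS-enriched (median -0.94, and -1.31 with 0 and 12 without HS replicate 1), among them FABP1, with 187, 239 and 191 CPM in MB libraries, against 435, 875 and 894 CPM in HS libraries (log2 -1.84, SE 0.33, adjusted p = 0.0116).

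Signalling enzymes and nucleotide kinases closed the set. Of 6 membrane guanylyl cyclases 4 were MB-enriched and 0 HS-enriched (median 1.42, and 1.3 with 6 and 0 without HS replicate 1), among them the photoreceptor cyclases gucy2d (log2 1.65, SE 0.42, adjusted p = 0.0292) and gucy2f (log2 1.37, SE 0.29, adjusted p = 0.0174) and the natriuretic peptide receptor npr1b (log2 1.6, SE 0.24, adjusted p = 0.00758). The soluble cyclase subunit gucy1b1 had 6.87, 5.54 and 4.75 CPM in MB libraries, against 4.13, 1.79 and 1.62 CPM in HS libraries (log2 1.2, SE 0.40, adjusted p = 0.0614, and log2 1.75 with an adjusted p of 0.00118 without HS replicate 1; adjusted p = 0.0111 with the block), apart in every library in the same direction. AK1, the muscle-type cytosolic adenylate kinase, had 383, 238 and 245 CPM in MB libraries, against 2515, 2119.6 and 1929 CPM in HS libraries (log2 -2.92, SE 0.30, adjusted p = 0.00472). For mitochondrial enzymes the values went both ways: idh2 had 481, 381 and 402 CPM in MB libraries, against 1249, 1376 and 1403 CPM in HS libraries (log2 -1.67, SE 0.22, adjusted p = 0.00641), the creatine kinase ckmt1 had 74.9, 107 and 105 CPM in MB libraries, against 39.3, 67.6 and 80.5 CPM in HS libraries (log2 0.61, SE 0.30, adjusted p = 0.168; adjusted p = 0.0425 with the block), and shmt2 had 17.8, 14.1 and 13.8 CPM in MB libraries, against 11.3, 4.96 and 3.66 CPM in HS libraries (log2 1.21, SE 0.42, adjusted p = 0.0694, and log2 1.82 with an adjusted p of 0.000794 without HS replicate 1; adjusted p = 0.0134 with the block).

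**Figure D4:**
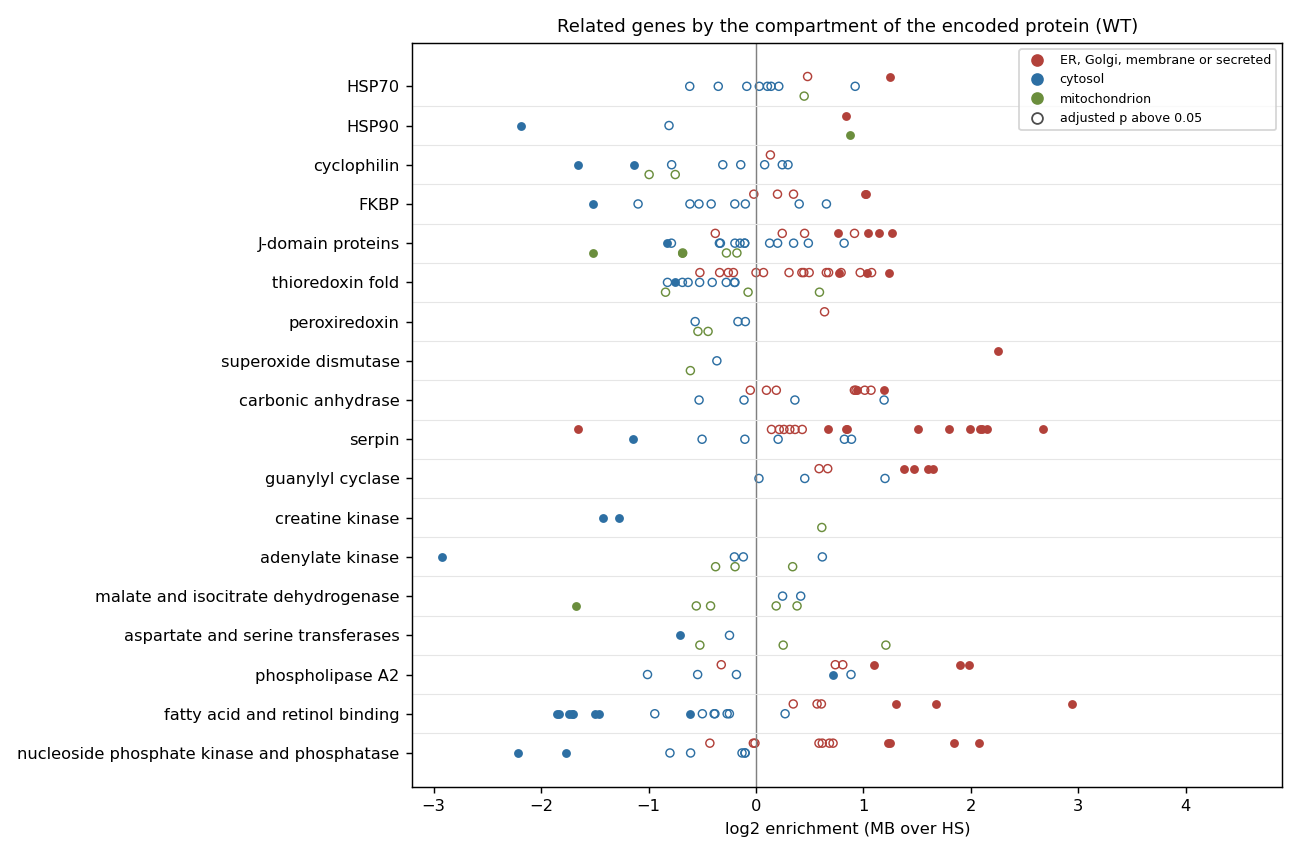
Log2 enrichment (MB over HS) of each tested member of 18 families, coloured by the compartment of the protein and filled where the adjusted p was at most 0.05. Secretory members have a median of 0.75, cytosolic ones -0.27 and mitochondrial ones -0.38.

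The genes with the largest values on each side are given with their replicates. A high HS replicate 1 itself lowers the log2 enrichment by which the HS side was chosen. Counts of HS replicate 1 on that side were therefore partly set by the choice. The same counts were not made over all genes. The 15 genes on each side were the largest among called genes with more than 1000 counts. Their libraries did not overlap between the groups, and symbols that were clone names were left out. Over all genes tested the log2 enrichment ran from -12.7 to 10.2, so larger values lay outside this choice. On the MB side mt-atp8, mt-nd4l, mt-nd5 and mt-co1, made from mitochondrial DNA, were among the 15. Several others encode secreted or membrane proteins, such as the relaxin-family hormone rln3a, with 9.55, 9.59 and 10.96 CPM in MB libraries, against 1.62, 1.12 and 1.301 CPM in HS libraries (log2 2.90, SE 0.24, adjusted p = 0.00472), the complement component c3a.2 (log2 2.94, SE 0.32, adjusted p = 0.00479) and the inter-alpha-trypsin inhibitor chain itih3b (log2 2.78, SE 0.37, adjusted p = 0.00624). MB replicate 1 was the lowest MB library in 10 of the 15. On the HS side stood an actin gene, actc1a (ENSDARG00000076126), with 0.0989, 0.0766 and 0.0278 CPM in MB libraries, against 36.5, 78.1 and 59.0 CPM in HS libraries (log2 -9.71, SE 0.55, adjusted p = 0.00468), a near-copy of other actins whose reads may be shared. With it stood the microtubule protein map7a, with 7.91, 3.98 and 3.38 CPM in MB libraries, against 160.2, 38.8 and 31.4 CPM in HS libraries (log2 -3.91, SE 0.73, adjusted p = 0.013), FAM168A (log2 -3.80, SE 0.56, adjusted p = 0.0074), fam133b (log2 -3.74, SE 0.49, adjusted p = 0.00624), the methionine aminopeptidase metap2a (log2 -3.55, SE 0.42, adjusted p = 0.00544) and a JPH1 gene (ENSDARG00000058603), another junctophilin, with 7.05, 2.84 and 2.98 CPM in MB libraries, against 111, 25.3 and 17.1 CPM in HS libraries (log2 -3.58, SE 0.80, adjusted p = 0.0203, and log2 -2.31 without HS replicate 1). HS replicate 1 was at least 2 times both other HS libraries in 13 of these 15 and the lowest of the HS libraries in 2, one of them the odorant receptor or121-2p, with 0.198, 0.766 and 0.584 CPM in MB libraries, against 1.03, 9.66 and 10.9 CPM in HS libraries (log2 -3.80, SE 0.89, adjusted p = 0.0229). Without HS replicate 1, map7a stood at -2.79 (adjusted p = 0.00123), FAM168A at -3.13 and fam133b at -3.19, all smaller in size. Their direction could hardly change, since the choice required every HS library to lie above every MB library.

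**Figure D5:**
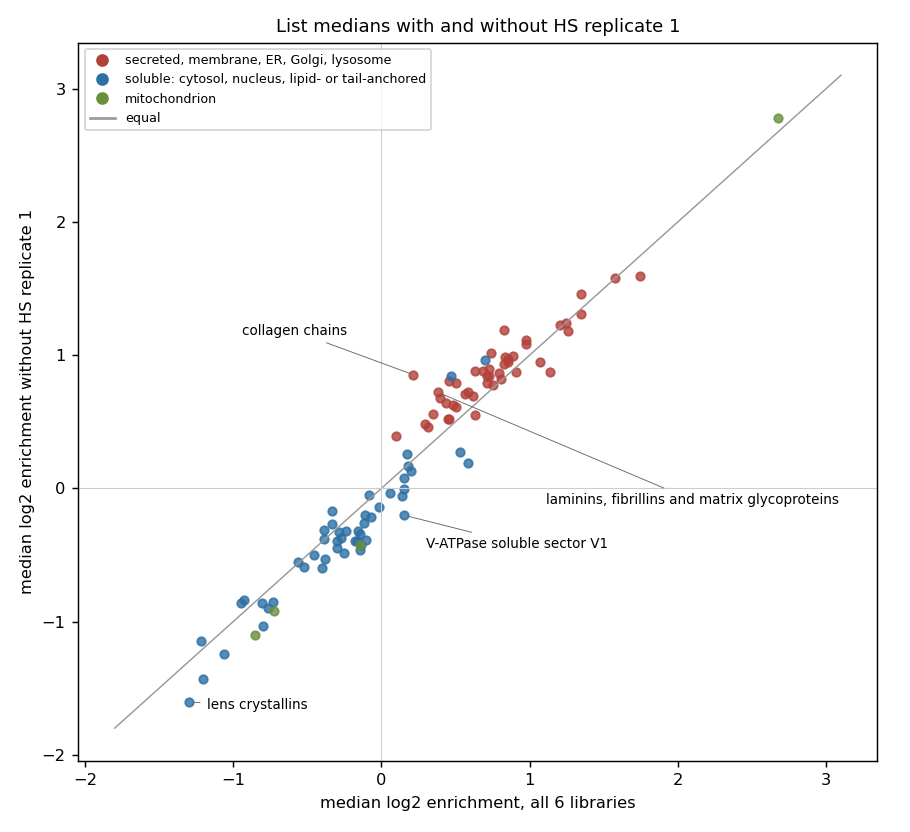
Median log2 enrichment (MB over HS) of each tissue and class list with all 6 libraries (x axis) and without HS replicate 1 (y axis), with the line of equal values. Collagen chains (0.21 and 0.85) lie farthest above the line, and the V1 sector of the vacuolar ATPase (0.15 and -0.20) crosses 0.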

How the data were processed

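RNA of the 2 fractions was spiked with ERCC RNA, captured by poly(A), made into stranded libraries and read as paired ends, per the labels. The authors deposited estimated counts per Ensembl gene, made with Salmon 1.4.0 on danRer11 according to the submitters' processing notes. These expected counts were rounded to whole numbers here, and 92 spike-ins were left out of all totals and tests. The mutant table and the whole-larva RNA of the protocol were not used here, and the study's supplementary tables were used for gene symbols only.

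Genes with more than 50 counts over 6 libraries were scaled by TMM and fitted in edgeR 4.0.16 (R 4.3.3) with its quasi-likelihood test on MB against HS, Benjamini-Hochberg adjusted over all genes. The SE of a log2 enrichment was its size over the square root of that test's F statistic. It thus rests in part on dispersion shared across genes. The fit was run on simulated counts that gave all genes a common dispersion, with no outlying library and no pairing. That run therefore does not show how the fit behaves with a library like HS replicate 1. Symbols were found for 22587 tested genes, and lists were matched to whole symbols, with 107 matches left out by name. Lists were not tested: their counts of called genes and medians stand beside those of all genes. The members and lists were chosen with earlier results of these data known. Named genes were, per list, the 3 with most counts, the called extremes above 1000 counts and called genes against their list's median. They were also every family member above 1000 counts, and the 15 largest on each side over all genes, under the filters given with them. Others are marked in the text. Some of these genes are not reported here.

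The labels number the replicates alike in both fractions. The deviation of each library from the mean of the others of its fraction was correlated across 20987 genes with at least 10 counts in every library. Same-numbered libraries gave 0.610, 0.552 and 0.476. MB replicate 2 with HS replicate 3 gave 0.507, and MB replicate 3 with HS replicate 2 gave 0.333. These values set replicate 1 apart but do not clearly tell replicate 2 from replicate 3. The numbers of the labels were taken to pair the libraries. Alternatives were DESeq2 1.42.0, scaling by library totals or spike-ins, other count filters, the replicate block, and each library left out.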

Additional observations from a re-analysis of the deposited data

How the results depend on the processing

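No named gene that was called changed direction under any alternative run, with values read relative to the shift of the all-gene median. Many of these genes were chosen by their call or size in these same libraries, which makes a reversal unlikely in any setting. Scaling by library totals or spike-ins moves genes by nearly the same amount. With that shift taken out, these settings could hardly reverse a gene, so they do not test direction. With the spike-in shift of 2.54 left in, HS-side values of smaller size would mostly lie above 0. Of 142 lists 21 had an alternative median of the other sign, all with a median of at most 0.58 in size. Of the MB-enriched genes (2948), library totals gave 7997, spike-in totals 17805, the replicate block 5079, and both replicates 1 left out 8413. Of the HS-enriched genes (3165), DESeq2 gave 4748, library totals 1677, spike-in totals 18, and both replicates 1 left out 7806. Leaving out single libraries gave 0 to 7036 MB-enriched and 0 to 6591 HS-enriched genes. Library totals and spike-ins moved that median by 0.51 and 2.54. The replicate block ended no call of a named gene and changed no call other than those given beside their values. Depth limits genes near the minimum of 50 counts. The alternatives on hydrophobic segments were not run, since no protein sequences were used.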
